A study of Mus musculus with 6 samples.

Results

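Of the 25001 loci in the FPKM tables of a mouse thymoma cell line, 34 were genes of glycolysis and of the response to hypoxia. They were chosen by gene symbol, and where a symbol occurred in several rows the Ensembl row of highest mean FPKM was taken. Only Gapdh had a further row, so that 35 rows carried the 34 symbols. By role the genes fall into 7 groups: glucose entry and phosphorylation, upper glycolysis, control of phosphofructokinase, lower glycolysis, the fate of pyruvate and lactate, oxygen sensing, and other hypoxia-inducible genes. Of the 34 genes, 31 reached an FPKM of 1 in some library. The remaining 3 (Slc16a3, Car9 and Adm) stayed under 1 in all 6 libraries.

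The study asked which genes respond to the intracellular domain (EICD) of epithin/PRSS14, a membrane serine protease encoded by St14, when it is released after shedding by the protease SPPL2b. RNA was sequenced from 427.1.86 thymoma cells (427 cells), which are wild type and carry the empty pSUPER vector, with DMSO or with 1 µM PMA for 2 h after 2 h without serum. Cells labelled SPPL2b KD received the same DMSO and PMA treatments, or were transfected with GFP alone or with GFP and FLAG-N55 (EICD) and sorted for GFP. For the sorted libraries the labels state no DMSO and no serum deprivation. The labels name an siRNA for the knockdown, whereas the methods describe a stable shRNA clone. Each of the 6 conditions has 1 library, so no difference below has a replicate check and no p-value was computed.

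The paper measured SPPL2b mRNA in its stable knockdown clones by real-time PCR and reported less EICD formation in them after PMA. In the FPKM of the present libraries, the targeted gene did not follow its label. Sppl2b had an FPKM of 9.90 and 6.86 in 427 cells with DMSO and PMA, and of 13.4, 9.37, 11.4 and 13.2 in the 4 libraries labelled SPPL2b KD, which are therefore named by their label throughout. St14 rose from 69.6 in the GFP library to 614.5 with EICD. The transfected EICD is itself St14 coding sequence, so reads of the construct can count towards this locus. They were not told apart from reads of the cells' own gene. Depth, estimated from the value of 1 fragment among genes of low FPKM, was 26400000 to 30300000 fragments. Of 8 epithelial markers in the tables, 7 reached an FPKM of 1 (Krt19 peaked at 0.657), and their summed FPKM was 2652 to 4451. Of 6 T lymphoid markers none reached 1, Cd3e and Cd4 were at 0, and the sum was 0.0304 to 0.34, so the markers of the cells are epithelial. The sums were 0.343 to 2.17 for 5 fibroblast markers (Pdgfrb reached 1.99), 0.0408 to 0.282 for 3 endothelial markers, and 4.45 to 8.66 for 4 macrophage markers (Csf1r reached 7.35, Adgre1 was at 0).

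Glycolysis turns glucose into pyruvate, which lactate dehydrogenase can reduce to lactate, and several of its steps are carried by paralogous enzymes made in different tissues. Prolyl hydroxylases of the Egln family use oxygen to mark Hif1a protein for degradation. When oxygen is short, Hif1a persists, pairs with Arnt and binds a short element in DNA, and many glycolytic enzymes, glucose transporters and mitophagy genes are among its known targets. Many of these genes also answer to growth factor signals in normal oxygen, and rapid glucose use is a common trait of tumour cells. Hif1a is controlled mainly as a protein, so its RNA is no measure of its activity. PMA activates protein kinase C.

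The core of the hypoxia response element, ACGTG or GCGTG, was sought on both strands (CACGT and CACGC on the other strand) in RefSeq promoter windows on GRCm38.p6 that run from 250 bases before to 50 bases after a start. It occurred in 37 of the 47 windows of the genes studied (78.7%, 32 genes with an entry), in 43.8% of all 32851 windows, and in 62.9% of the 10207 windows of genes that reached an FPKM of 1. A match is a match of letters and says nothing about binding. No match was found for Eno2, Gpi1 and Tpi1, and Ndrg1 and Bnip3l had no entry. The stretches below hold the matches (capitals) of genes on which the results turn: Hk2 and Egln3, which were higher with PMA in both lines, Bnip3 and Pfkp, whose highest value was 4.98 and 4.44 times the lowest, Ankrd37, which was lower with EICD, and Pgk1 and Ldha as enzymes of high level. CACGTG holds the core on both strands. The stretch for Pfkp shows 3 of 4 matches and that for Ldha 5 of 7. Ldha had 2 windows, and the one shown was picked for having the most matches. For Egln3 and Ldha the bases that follow the RefSeq start were not found in any GENCODE transcript of the gene. For the other genes shown they were found in a transcript, but the starts themselves were not compared.
Hk2 (chr6:82774487-82774695, minus strand): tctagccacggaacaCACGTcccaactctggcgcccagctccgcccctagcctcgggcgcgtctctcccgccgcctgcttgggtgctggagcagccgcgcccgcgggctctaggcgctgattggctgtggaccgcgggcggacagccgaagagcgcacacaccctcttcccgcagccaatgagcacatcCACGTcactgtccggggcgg
Egln3 (chr12:54204084-54204118, minus strand): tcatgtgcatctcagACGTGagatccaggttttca
Bnip3 (chr7:138909522-138909638, minus strand): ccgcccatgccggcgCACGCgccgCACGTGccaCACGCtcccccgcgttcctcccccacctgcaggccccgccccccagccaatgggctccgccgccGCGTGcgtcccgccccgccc
Pfkp (chr13:6648775-6648922, minus strand): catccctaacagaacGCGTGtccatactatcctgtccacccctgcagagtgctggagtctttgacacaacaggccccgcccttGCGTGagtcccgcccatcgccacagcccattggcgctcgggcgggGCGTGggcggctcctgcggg
Ankrd37 (chr8:45999851-46000100, minus strand): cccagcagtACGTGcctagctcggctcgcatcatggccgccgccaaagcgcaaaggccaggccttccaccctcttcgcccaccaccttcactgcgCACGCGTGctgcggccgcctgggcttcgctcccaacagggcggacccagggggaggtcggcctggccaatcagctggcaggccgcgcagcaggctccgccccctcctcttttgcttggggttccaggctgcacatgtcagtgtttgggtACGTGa
Pgk1 (chrX:106186935-106186988, plus strand): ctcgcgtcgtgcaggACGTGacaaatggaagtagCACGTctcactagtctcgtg
Ldha (chr7:46845644-46845789, plus strand): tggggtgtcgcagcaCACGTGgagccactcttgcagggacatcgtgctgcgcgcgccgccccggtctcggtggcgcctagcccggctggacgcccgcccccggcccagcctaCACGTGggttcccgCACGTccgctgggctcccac
Hk2 held 2 matches, Egln3 1, Bnip3 5, Ankrd37 4 and Pgk1 2, and all of those shown lay before the start.

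On GRCm38, the gene models of those named most often below lie at chr6:82725025-82774454 (Hk2), chr12:54178981-54203860 (Egln3), chr7:138890836-138909519 (Bnip3), chr13:6579768-6648777 (Pfkp), chr6:124760053-124769673 (Eno2), chr15:66929321-66969640 (Ndrg1), chr8:45996902-45999867 (Ankrd37) and chrX:106187100-106203699 (Pgk1).

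A few enzymes had by far the highest levels. Mean FPKM, which is scaled per length of transcript, passed 100 for 9 genes. For all of these but Pkm the length came from gene models with newly assembled isoforms, which can affect the order between genes. The highest was Gapdh, the dehydrogenase of glyceraldehyde phosphate, at a mean of 1600. It was followed by Pkm (pyruvate kinase, 962), Ldha (lactate dehydrogenase, 648), Eno1 (enolase, 419), Pgk1 (phosphoglycerate kinase, 397), Pgam1 (phosphoglycerate mutase, 338), Aldoa (aldolase, 272), Tpi1 (triose phosphate isomerase, 243) and Gpi1 (glucose phosphate isomerase, 140). Values over all libraries are given below in a fixed order, which is 427 cells with DMSO and PMA, the cells labelled SPPL2b KD with DMSO and PMA, then GFP, then GFP with EICD. Gapdh had an FPKM of 1428, 1779, 1595, 1527, 1849 and 1422. Pkm had 922, 911, 1029, 998, 1131 and 785. Both were highest in the GFP library and lowest with EICD. Ldha showed the same extremes at 609, 665, 695, 681, 722 and 515. Eno1 had 409.8, 487, 373, 477, 442 and 326. Pgk1 had 549 and 505 in 427 cells but 339, 341, 349 and 301 in the cells labelled SPPL2b KD, so that both values of 427 cells lay above all of the others. Of the 31 genes that reached an FPKM of 1, 8 had a highest value less than 1.5 times the lowest, and 10 more than 2 times. This range was not computed for all loci, so the counts do not show whether these genes vary more or less than others.

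**Figure D1:**
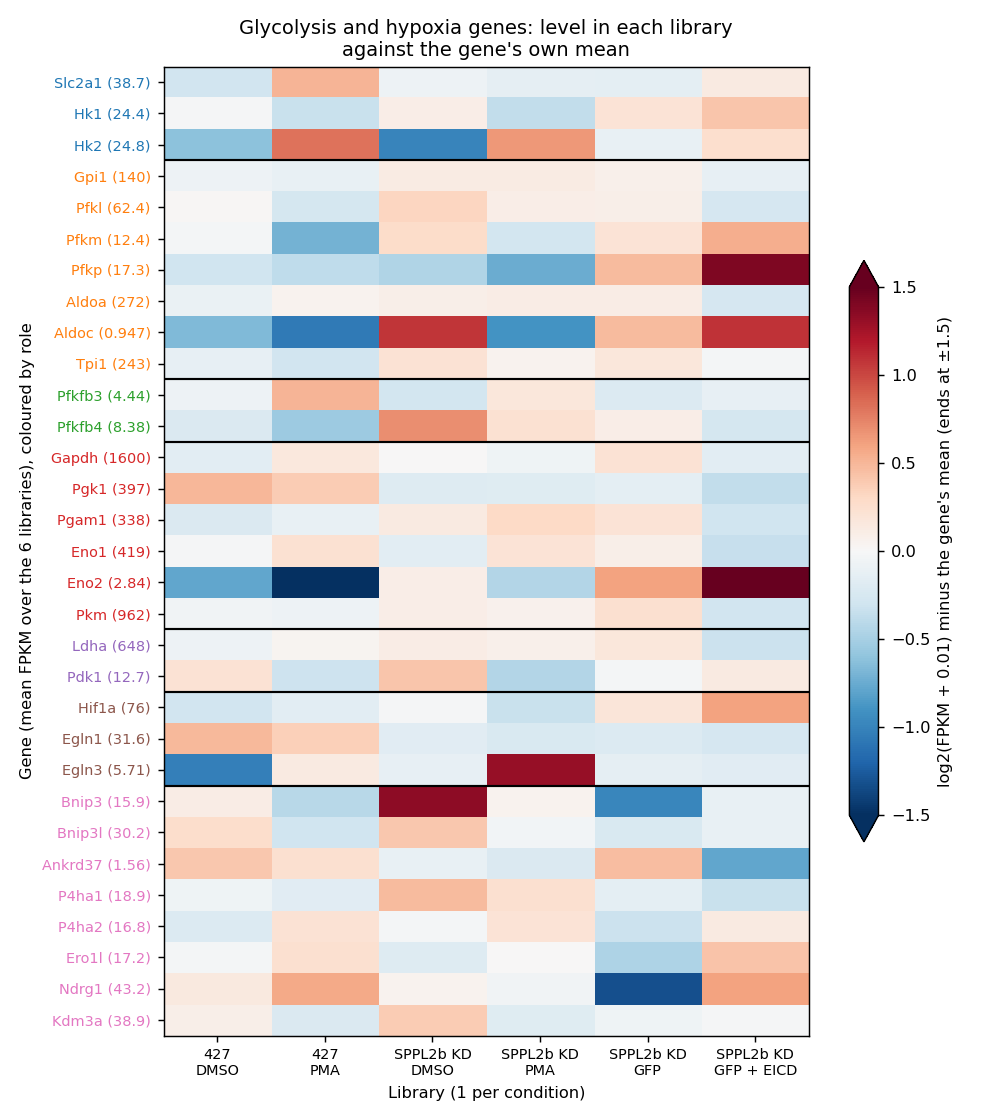
Level of the 31 genes that reached an FPKM of 1, in each of the 6 libraries (columns), as log2(FPKM + 0.01) minus the gene's own mean, with blue for lower and red for higher and the mean FPKM in parentheses. Rows are ordered by role, separated by lines. Gpi1, Tpi1, Aldoa and the lower glycolysis enzymes other than Eno2 stay pale, and the deep colours belong to Hk2, Pfkp, Aldoc, Eno2, Egln3, Bnip3, Ankrd37 and Ndrg1.

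Among the enolases and aldolases the minor form varied more than the major one. The enolase Eno2, the form known from neurons, had an FPKM of 1.19, 0.704, 2.19, 1.49, 3.09 and 8.38, an 11.9-fold range, against less than 1.5-fold for Eno1. Aldoc, the aldolase of brain, had 0.489, 0.369, 1.65, 0.415, 1.09 and 1.67 against 252, 281, 287, 293, 292 and 228 for Aldoa. These Aldoc values rest on an estimated 29.2 to 135 fragments. In both pairs the minor form was lowest in 427 cells with PMA and highest with EICD. For Aldoc this order is uncertain, since libraries labelled SPPL2b KD came close at both ends. With PMA it had 0.415 there against 0.369 in 427 cells (35.1 and 29.2 fragments). With DMSO it had 1.65 there against 1.67 with EICD (126 and 135 fragments).

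The first committed step had 3 paralogues. The liver-type phosphofructokinase Pfkl led at 62.3, 51.3, 77.0, 66.1, 65.9 and 51.8. The muscle type Pfkm had 11.7, 7.34, 14.5, 9.88, 13.8 and 17.4. The platelet type Pfkp had 12.2, 11.5, 10.9, 8.93, 20.8 and 39.7. Thus both sorted libraries were above the range of the other 4 for Pfkp, and with EICD it came close to Pfkl. Pfkm and Pfkp overlap loci on the opposite strand (Senp1 over 1156 bases, Pitrm1 over 372), and the library kit is not stated to keep the strand. Pitrm1 itself had 51.4, 50.9, 56.3, 58.1, 44.4 and 47.4. Of the bifunctional enzymes that make and remove the sugar phosphate activating phosphofructokinase, Pfkfb3 had 4.12, 6.24, 3.61, 4.89, 3.78 and 4.01, and Pfkfb4 had 6.94, 5.51, 13.0, 9.46, 8.66 and 6.68. Pfkfb3 was highest in 427 cells with PMA, where Pfkfb4 was lowest.

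The 2 hexokinases, which trap glucose in the cell, were close in mean level but not in behaviour. Hk1, the common form, had an FPKM of 23.7, 19.0, 25.5, 18.6, 27.6 and 31.9. Hk2, the regulated form of muscle and many tumours, had 14.7, 39.7, 11.4, 35.3, 20.9 and 26.8. Hk1 exceeded Hk2 in every library except the 2 with PMA, where Hk2 was the higher. The glucose transporter Slc2a1 ranged from 31.3 to 54.1.

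**Figure D2:**
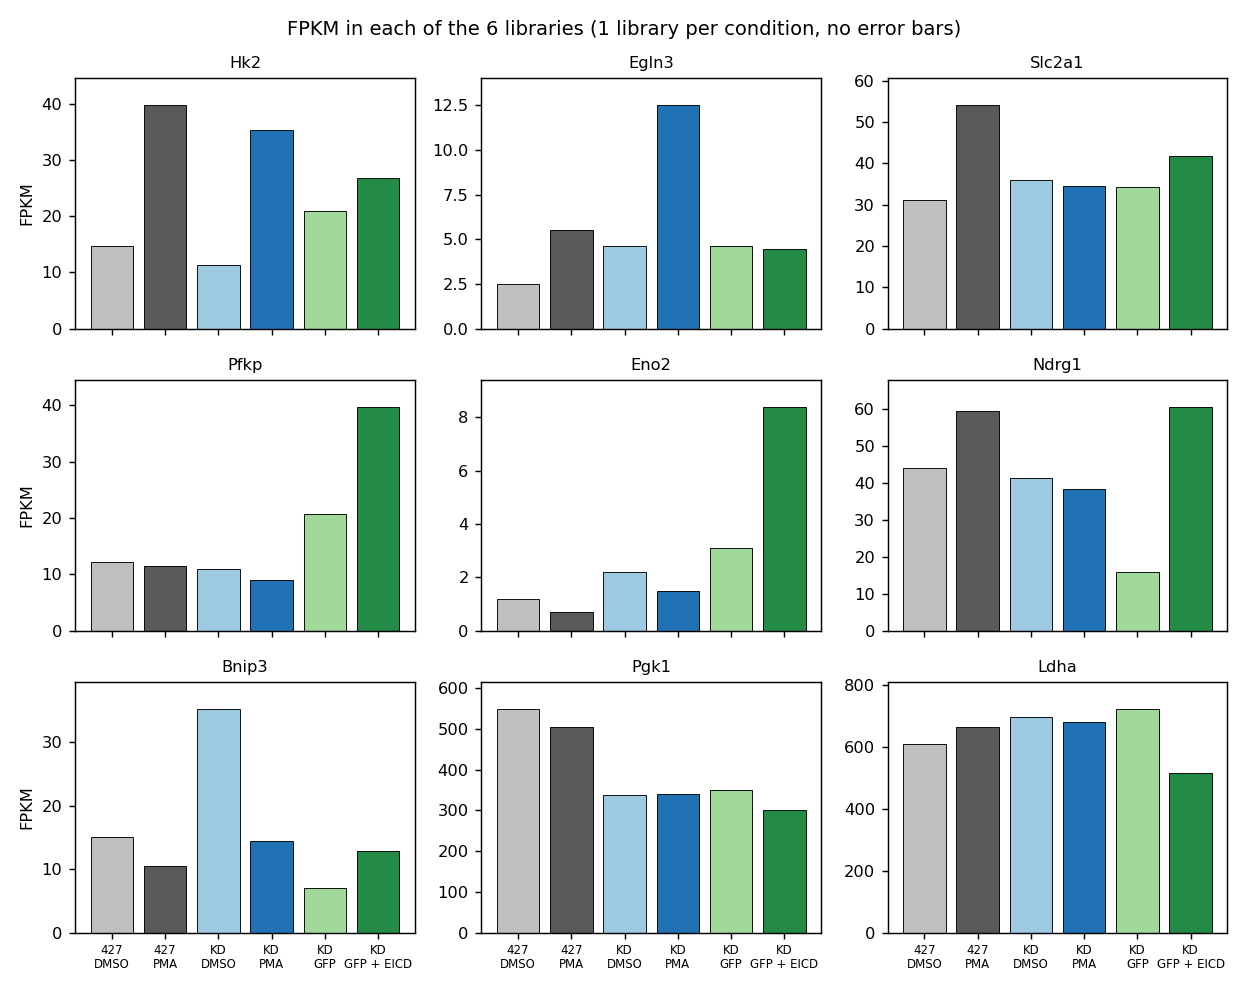
FPKM of 9 genes in each of the 6 libraries (bars from 0, 1 library each, so no error bars; KD stands for the label SPPL2b KD, and each panel has its own axis). Hk2 and Egln3 are higher in both PMA libraries than in their DMSO libraries, Pfkp and Eno2 are highest with EICD, Ndrg1 and Bnip3 are lowest in the GFP library, and Pgk1 is higher in both libraries of 427 cells.

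Fold changes are given as log2 of the ratio of FPKM with 0.01 added to both libraries, for loci that reached an FPKM of 1 in either library. Genes are called higher or lower past 2-fold, with 1.5-fold as a second level, and each count over the 34 genes stands beside the share of all loci past the same fold. Intervals given with a fold cover only counting error (95%, exact binomial) on estimated fragments, not differences between cultures. The fragments are upper estimates, so the intervals can be too narrow even for counting error.

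PMA was compared with DMSO within each line. Of the 30 genes measured in 427 cells, 2 were more than 2-fold higher (4.44% of all loci) and 0 lower (5%). Of the 31 measured in cells labelled SPPL2b KD, 2 were higher (3.83%) and 2 lower (6.4%). The 2 higher genes were Hk2 and Egln3 in both lines, which share no library. The share of all loci more than 2-fold higher in both lines was not computed. Hk2 was higher by 1.44 on the log2 scale in 427 cells (interval 1.37 to 1.51) and by 1.63 in cells labelled SPPL2b KD (1.56 to 1.71). Egln3, a prolyl hydroxylase whose own gene is induced by hypoxia, had an FPKM of 2.47, 5.55, 4.63, 12.5, 4.61 and 4.48. Its log2 fold was 1.16 in 427 cells, from an estimated 181 to 419 fragments, and 1.43 in cells labelled SPPL2b KD, from 339 to 1010 fragments. The other genes of oxygen sensing did not pass 1.5-fold with PMA. Hif1a had 60.8, 66.3, 73.1, 58.7, 84.2 and 113, with log2 folds of 0.12 and -0.32. Egln1, the main hydroxylase of Hif1a, had 43.3, 39.5, 27.5, 26.4, 26.8 and 26.0, with log2 folds of -0.13 and -0.06.

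At 1.5-fold, 4 genes were higher with PMA in 427 cells (8.8% of all loci) and 2 in cells labelled SPPL2b KD (8.23%). Besides Hk2 and Egln3, those of 427 cells were Slc2a1 and Pfkfb3. Slc2a1 went from 31.3 to 54.1 (log2 0.79), while in cells labelled SPPL2b KD it was 36.0 with DMSO and 34.7 with PMA (-0.06). Its difference between the lines was 0.85 on the log2 scale. Over the 11281 loci measured in either line this difference had a median of 0.0012, and ran from -0.55 to 0.68 between its 5% and 95% points. Of the 31 genes, 3 lay outside that range, Slc2a1, Bnip3 (0.75) and Aldoc (1.57). By definition 5% of all loci lie beyond each of these points, so 3 of 31 is near the share of all loci. Aldoc was under an FPKM of 1 in both libraries of 427 cells. The difference was not tested, since each value has 1 library. For Pfkfb3 the log2 folds were 0.60 and 0.44.

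At 1.5-fold, 2 genes were lower in 427 cells (14.8% of all loci), Pfkm with a log2 fold of -0.67 and Eno2 with -0.74, and the values in cells labelled SPPL2b KD were -0.55 for each. In cells labelled SPPL2b KD 3 genes were lower (17.3%), namely Pdk1, Bnip3 and Aldoc. Pdk1, the kinase that shuts pyruvate out of the citrate cycle, went from 16.6 to 9.15 (log2 -0.86) there and from 14.5 to 10.0 in 427 cells (-0.53). Bnip3, a mitophagy receptor, had an FPKM of 15.1, 10.4, 35.3, 14.5, 7.08 and 12.9, and PMA gave a log2 fold of -0.53 and -1.28. Its relative Bnip3l had 35.7, 24.2, 39.4, 28.9, 25.4 and 27.5, with log2 folds of -0.56 and -0.45. Aldoc fell from 1.65 to 0.415 in cells labelled SPPL2b KD, a log2 fold of -1.97 (-2.57 to -1.44) from 126 to 35.1 fragments, and was under an FPKM of 1 in both libraries of 427 cells. Of the 30 genes measured in both lines, 24 had the same sign with PMA, as did 81.3% of the 10687 loci measured in both. The median log2 fold was -0.06 and -0.10, against -0.12 and -0.15 over all loci.

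**Figure D3:**
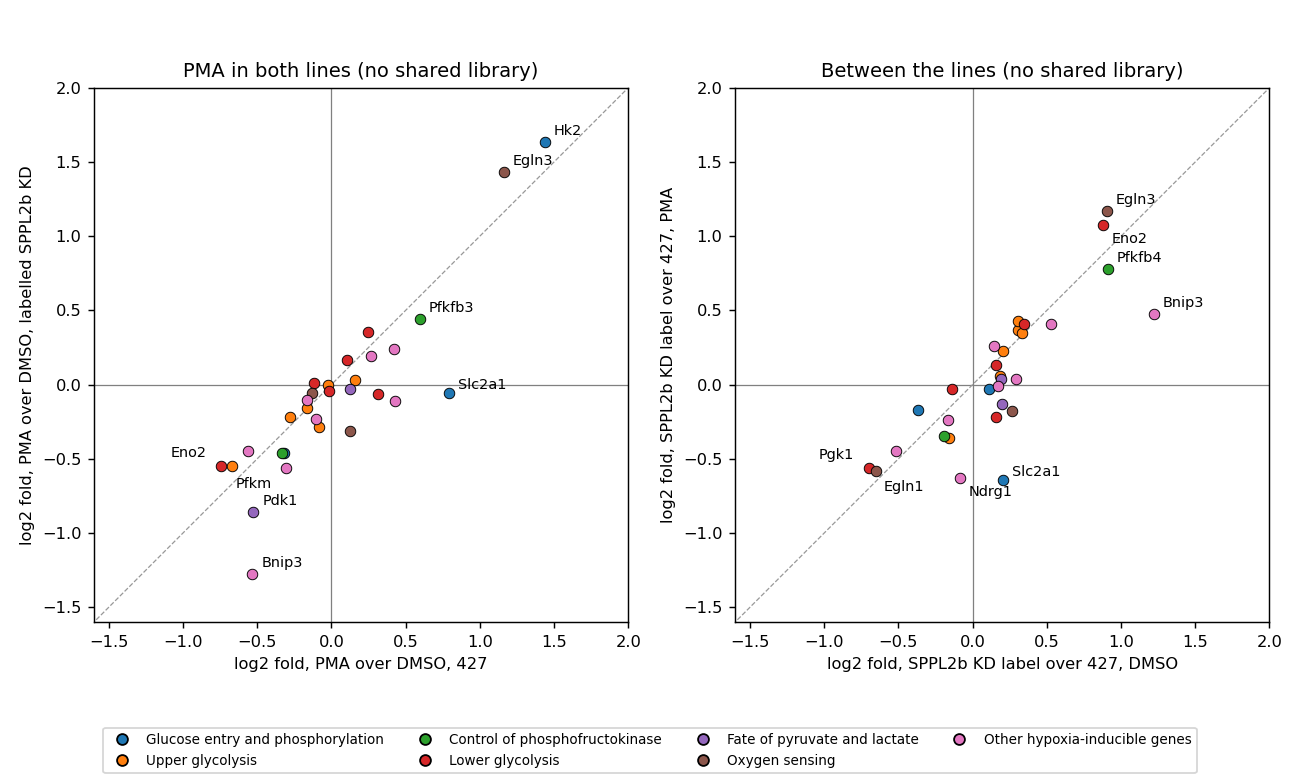
Left, log2 fold with PMA in 427 cells (horizontal axis) and in cells labelled SPPL2b KD (vertical axis). Right, log2 fold between cells labelled SPPL2b KD and 427 cells with DMSO (horizontal) and with PMA (vertical). Each point is 1 of 30 genes, coloured by role, and the dashed line marks equality. Hk2 and Egln3 stand apart at the upper right on the left, Slc2a1 lies near the zero line of the cells labelled SPPL2b KD, and Pgk1 and Egln1 lie together at the lower left on the right.

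The lines were compared with each other under DMSO and under PMA. The 2 comparisons share no library, although each shares its libraries with the PMA comparisons above. With DMSO, 2 genes were more than 2-fold higher in cells labelled SPPL2b KD (3.92% of all loci) and 0 lower (3.13%). With PMA the counts were 2 higher (2.56%) and 0 lower (3.27%). Since the FPKM of Sppl2b was not lower in these libraries, directions are given by label, and the part of Sppl2b in them was not tested. At 1.5-fold, 5 genes were higher and 2 lower with DMSO (9.31% and 6.86% of all loci), and 3 higher and 2 lower with PMA (6.73% and 7.08%). The median log2 fold was 0.19 with DMSO and 0.01 with PMA, against 0.05 and 0.02 over all loci.

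Egln3, Eno2 and Pfkfb4 were higher under both treatments. Egln3 gave log2 folds of 0.90 with DMSO and 1.17 with PMA. Eno2 gave 0.88 and 1.07, the latter with an interval of 0.62 to 1.57. Pfkfb4 gave 0.91 and 0.78. These 3 genes thus passed 1.5-fold under each treatment, in libraries that are not shared, while Egln3 and Eno2 passed 2-fold with PMA. The share of all loci past 1.5-fold under both treatments was not computed. With DMSO, Bnip3 was 1.22 higher and Aldoc 1.73 higher on the log2 scale. With PMA, Bnip3 gave 0.48. Aldoc was then under an FPKM of 1 in both lines, at 0.415 against 0.369, and so was not measured. Both genes were highest among the 4 unsorted libraries in the DMSO library labelled SPPL2b KD, which also serves in their comparisons with PMA.

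Pgk1 and Egln1 were the clearest genes in the other direction. Pgk1 gave log2 folds of -0.70 with DMSO and -0.56 with PMA, and Egln1 gave -0.65 and -0.58, so that both passed 1.5-fold with DMSO and missed it narrowly with PMA. In all 4 libraries labelled SPPL2b KD, both genes were below both libraries of 427 cells. With PMA, Slc2a1 gave -0.64 and Ndrg1 -0.63, where the DMSO values were 0.20 and -0.09. The collagen prolyl hydroxylases stayed within 1.5-fold between the lines. P4ha1 had an FPKM of 17.8, 16.6, 25.7, 21.9, 16.8 and 14.7, and P4ha2 had 14.4, 19.4, 16.3, 19.2, 13.3 and 18.3.

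The direction between the lines depends on the scale. The 10 largest loci held 85.6% to 94.2% of the FPKM sum, and the sum was 12455500 and 14815400 in 427 cells but 6365930 and 6238460 in the cells labelled SPPL2b KD with DMSO and PMA. When each library was scaled to the same sum, 19 of 26 genes were more than 2-fold higher in cells labelled SPPL2b KD with DMSO, as were 51.9% of all loci, and 22 of 27 with PMA, as were 83.3%. The median of all loci then moved by 0.96 and 1.24 on the log2 scale. The median of the genes minus that of all loci was 0.14 with DMSO on both scales, over 31 and then 26 genes. With PMA it went from -0.011 to 0.014, over 30 and then 27 genes.

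EICD was examined by comparing the library sorted after transfection with GFP and EICD with that of GFP alone. Of 31 genes, 2 were more than 2-fold higher (3.93% of all loci) and 1 lower (0.836%). At 1.5-fold 6 were higher (10.9%) and 1 lower (3.11%). The median log2 fold was 0.05, against 0.07 over all loci. Ndrg1, a stress- and hypoxia-inducible gene of differentiation, had an FPKM of 43.9, 59.2, 41.3, 38.4, 15.9 and 60.4, and its log2 fold with EICD was 1.92 (1.85 to 2.00). The GFP library was the lowest of the 6, and the EICD library was close to 427 cells with PMA. Eno2 had a log2 fold of 1.43 (1.22 to 1.66), from 228 to 677 fragments, and here the EICD library stood above the other 5.

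Pfkp, Ero1l, Bnip3 and Aldoc passed 1.5-fold. Pfkp was 0.93 higher on the log2 scale (0.88 to 0.98), with the EICD library again the highest, while Pitrm1 on the other strand gave 0.09. Ero1l, an oxidase of protein folding (Ero1a in RefSeq), had an FPKM of 16.6, 20.0, 14.8, 16.9, 12.2 and 22.6 and a log2 fold of 0.88, with the GFP library lowest and the EICD library highest. Bnip3 had a log2 fold of 0.87, but its value with EICD, 12.9, lay within the range of the unsorted libraries. Aldoc gave 0.62, with an interval of 0.21 to 1.04. Ankrd37, an ankyrin repeat gene of the hypoxia response, was the gene that fell. It had 1.98, 1.77, 1.38, 1.29, 2.06 and 0.864, a log2 fold of -1.24 from an estimated 50.4 to 23.2 fragments, with a wide interval of -2.03 to -0.51. It shares 57 bases with Ufsp2 on the opposite strand, which gave -0.03.

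Glucose entry shifted little. Slc2a1, Hk1 and Hk2 gave log2 folds of 0.29, 0.21 and 0.36, and Hif1a gave 0.42, all within 1.5-fold. For Hif1a the EICD library was nevertheless the highest of the 6.

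All 9 enzymes with a mean FPKM over 100 were lower with EICD, none of them past 1.5-fold. Their median log2 fold was -0.38, from -0.53 for Pkm to -0.19 for Gpi1. For 8 of the 9, all but Tpi1, the EICD library was the lowest of the 6. The share of other abundant loci that were lowest of the 6 with EICD was not computed. That all 9 were lower than with GFP is to be read against other loci of the same level. Of all 896 loci with a mean FPKM of 100 or more, 78.9% were lower with EICD, with a median of -0.19 and a middle range of -0.34 to -0.03 (quartiles). In the other 5 comparisons the median of these loci was between -0.04 and 0.08. The lower values of the enzymes thus moved together with a lower level of abundant loci in this library, and the part of the latter was not tested.

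**Figure D4:**
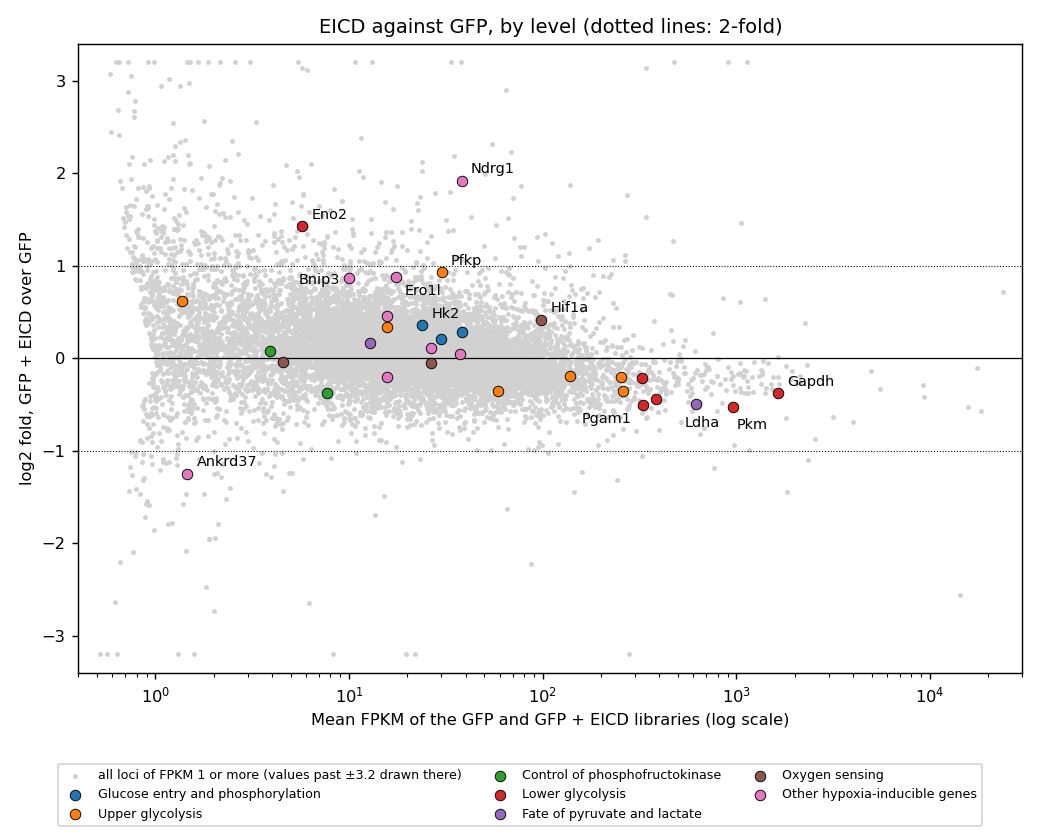
Log2 fold of GFP with EICD over GFP (vertical axis) against the mean FPKM of both libraries (horizontal, log scale). Coloured points are the 31 genes by role, grey points are all 11000 loci measured, and dotted lines mark 2-fold. Ndrg1 and Eno2 lie above 2-fold and Ankrd37 below it, and the abundant enzymes at the right, with most grey points of that level, lie below 0.

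The GFP library was also set beside the unsorted DMSO library labelled SPPL2b KD. Transfection, sorting and the treatment before harvest differ between them and cannot be told apart. Of 31 genes, 0 were more than 2-fold higher (4.01% of all loci) and 2 lower (5.14%). These were Bnip3, with a log2 fold of -2.31 (-2.49 to -2.14), and Ndrg1, with -1.37. At 1.5-fold 2 genes were higher (8.51%), Pfkp by 0.93 and Hk2 by 0.88, and 6 were lower (13.3%), the others being Bnip3l, P4ha1, Aldoc and Pfkfb4 at -0.63 to -0.59. The median over the 31 genes was -0.04. Of the 8 measured genes in the group of other hypoxia-inducible genes, 7 were lower, with a median of -0.53, where 59.3% of all loci were lower and their median was -0.08. The 6 genes of lower glycolysis were all higher, with a median of 0.17, and none passed 1.5-fold. Of all loci 40.7% were higher, and of the 896 loci with a mean FPKM of 100 or more, to which all of the 6 but Eno2 belong, 52.1% were higher with a median of 0.017.

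This comparison shares the GFP library with that of EICD. A low value in the GFP library therefore raises the fold of EICD, and a high value lowers it. Side by side, Ndrg1 was -1.37 in the GFP library against the unsorted one and 1.92 with EICD against GFP. Bnip3 was -2.31 and then 0.87, while Pfkp was 0.93 in each and Eno2 was 0.50 and 1.43. Of the other genes past 1.5-fold with EICD, Ero1l was -0.27 and 0.88, Aldoc -0.60 and 0.62, and Ankrd37 0.57 and -1.24. For these genes and for Ndrg1 and Bnip3 the folds ran in opposite directions, whereas for Pfkp and Eno2 both steps were upward.

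The remaining 7 genes were either steady or of low level. Tpi1 ran from 198 to 280, Gpi1 from 129 to 152, Pgam1 from 271 to 411 and the histone demethylase Kdm3a from 33.1 to 50.2. The lactate exporter Slc16a3 was measured at 0.141 to 0.496, the carbonic anhydrase Car9 at 0.0958 to 0.796, and the peptide hormone gene Adm at 0 to 0.374. For Car9 the estimate was 5.32 to 48.9 fragments. It was highest with PMA in each line, at 0.486 against 0.116 in 427 cells and 0.796 against 0.0958 in cells labelled SPPL2b KD. Adm was listed at 0 in 427 cells with PMA and in the GFP library, and no fold is given for it.

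Other genes of the hypoxia response were taken from a list of 36, of which 35 were in the tables and 26 were measured in each comparison but that of the lines with PMA (25). With PMA in 427 cells, 1 was more than 2-fold higher (3.85% of the list, 4.44% of all loci) and 3 lower (11.5%, 5%). In cells labelled SPPL2b KD 2 were higher (7.69%, 3.83%) and 3 lower (11.5%, 6.4%). The medians of the list were -0.20 and -0.24, against -0.12 and -0.15 over all loci. Vegfa, the endothelial growth factor, had an FPKM of 18.4, 96.2, 7.39, 43.9, 20.2 and 80.5. Its log2 fold with PMA was 2.39 in 427 cells and 2.57 in cells labelled SPPL2b KD, larger than that of Hk2 in both. Between the lines it gave -1.31 with DMSO and -1.13 with PMA, and with EICD 2.00. The transcription repressor Bhlhe40 gave 0.82 and 1.30 with PMA.

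Those lower with PMA in 427 cells were Ddit4, Ccng2 and Pdk2. Ddit4, an inhibitor of mTORC1, had an FPKM of 172, 69.4, 140.1, 74.1, 148 and 310.1, with log2 folds of -1.31 and -0.92. The cyclin Ccng2 gave -1.53 and -1.80, and the pyruvate dehydrogenase kinase Pdk2 gave -1.42 and -1.98. In cells labelled SPPL2b KD the third gene past 2-fold was Zfp395, at -1.16. With EICD, 3 were higher (11.5% of the list, 3.93% of all loci) and 0 lower (0.836% of all loci), the higher ones being Vegfa, Ddit4 (1.06) and Pdk2 (1.10). Between the lines Vegfa was the 1 gene of the list past 2-fold, with DMSO (3.85%, against 3.13% of all loci lower) and with PMA (4%, against 3.27%), while the collagen crosslinker Lox reached -0.99 and -0.97. In the GFP library against the unsorted one, Bhlhe40, Bhlhe41 and Vegfa gave 1.82, 1.54 and 1.45 (11.5% of the list, 4.01% of all loci), and Lox and Ccng2 gave -1.80 and -1.71 (7.69%, 5.14%).

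Genes of neighbouring pathways were counted in the same way. Over the 6 comparisons, 2.56% to 4.44% of all loci were more than 2-fold higher and 0.836% to 6.4% more than 2-fold lower. In sets of the size below, such shares amount to few genes or none. Of 16 other glycolysis genes 15 were in the tables and 4 or 5 were measured. None passed 2-fold with PMA, and the muscle enolase Eno3 was more than 2-fold higher in cells labelled SPPL2b KD under both treatments (log2 1.23 with PMA), at 3.60, 3.57, 8.58, 8.39, 3.27 and 4.43, and gave -1.39 in the GFP library against the unsorted one. Pgam2, at an FPKM of 1.01 with EICD, was higher by 1.42. The lactate carrier Slc16a1, a relative of Slc16a3, had 26.8, 38.4, 29.9, 39.6, 40.8 and 61.5. Of 6 pentose phosphate genes and 23 citrate cycle genes, 0 passed 2-fold in any of the 6 comparisons. Of 16 genes of glycogen and gluconeogenesis, 10 or 11 were measured. Pck2, the mitochondrial carboxykinase, was higher with EICD by 1.38, from 18.1 to 47.0, and Pygm was higher by 1.54 in the GFP library than in the unsorted one. No other call was made in this list.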

How the data were processed

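Total RNA of the 6 libraries was enriched for poly(A) RNA and sequenced as paired ends. Per the labels, TopHat2 2.1.1, STAR 2.4.0b, Cufflinks 2.1.1 and Cuffdiff 2.1.1 were used on GRCm38, with the role of STAR not given in the sources used here. The authors deposited FPKM (fragments per kilobase of exon, relative to the size of the library), with 1 value per locus and library. Of the 34 genes, 31 had gene models with newly assembled isoforms, which affects the length used and so the level. FPKM are not counts, and a fit of counts was not made.

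From these values log2 ratios were computed with 0.01 added to both libraries, for loci that reached an FPKM of 1 in either library, with Python 3.11.15, NumPy 2.4.6, pandas 2.3.3, SciPy 1.17.1 and matplotlib 3.10.9. Groups came from the sample titles. The 34 genes and all other lists were chosen with earlier results of these data known. Values in every library are given for each gene past 2-fold in at least 1 comparison, the 5 genes of highest mean FPKM, Hif1a, Egln1, Egln3 and genes with a paralogue in the list, and other lists are named where they pass 2-fold or stand for the list; Ero1l, Pitrm1 and Slc16a1 were added after their values were seen. Depth was estimated from the step that 1 fragment makes in low FPKM, and was 26000000 to 30500000 fragments from each library's own scale. Fragments per gene use the longest GENCODE transcript and are upper estimates. Intervals cover counting error only, and can be too narrow because they use these upper estimates. The computation was tested on simulated data. Alternatives were 0.1 or 1 added, a minimum FPKM of 0.1 or 10, scaling to the same upper quartile, to the same sum or by the median ratio, the sum over rows of a symbol, and for EICD 0.001 added to the EICD library only.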

Additional observations from a re-analysis of the deposited data

Results flagged for a closer look

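Slc16a3, the lactate exporter, was noted because its PMA values ran in opposite directions in both lines. Its log2 fold was -0.79 in 427 cells and 1.24 in cells labelled SPPL2b KD, and the difference was not tested. The interval in 427 cells, -1.70 to 0.07, spans both directions, so counting error alone leaves the fall there uncertain. In cells labelled SPPL2b KD it was 0.60 to 2.04. Its FPKM was under 1 in all 6 libraries, with an estimated 32.0 fragments with DMSO and 18.5 with PMA in 427 cells, and 24.3 and 65.2 in cells labelled SPPL2b KD. The locus shares 1627 bases with Csnk1d on the opposite strand, which had log2 folds of 0.02 and 0.55. The part of these reads in the values of Slc16a3 was not tested.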

How the results depend on the processing

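No paired analysis was possible because each condition has 1 library, and for the same reason no library could be left out. Differences in counts or medians of this size cannot be separated from differences between cultures. Of the 15 calls past 2-fold, all 15 were kept with a minimum FPKM of 0.1, the same upper quartile, the median ratio and the sum over rows, 14 with 0.1 added (Eno2 between the lines with PMA was lost), 10 with 1 added, 10 with the same sum and 9 with a minimum of 10, and all 3 of EICD with 0.001 added to the EICD library only. No call reversed. The calls lost with 1 added and with the same sum were Egln3 in 427 cells, both calls of Aldoc, Eno2 between the lines with PMA and Ankrd37, all at low FPKM. A minimum of 10 also removed Eno2 with EICD.

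In parentheses are the shares of all loci under the same setting. With PMA in 427 cells the higher count was 2 (4.44%). It went to 1 with 1 added (3.15%), a minimum of 10 (3.4%) or the same sum (2.25%). The lower count went from 0 (5%) to 1 with a minimum of 0.1 (11.1%). The median went from -0.06 to -0.27 with the same sum, and that of all loci from -0.12 to -0.31. With PMA in cells labelled SPPL2b KD the higher count went from 2 (3.83%) to 4 with a minimum of 0.1 (7.68%). The lower count went from 2 (6.4%) to 1 with 1 added (2.93%), a minimum of 10 (2.84%) or the same sum (3.01%). The median went from -0.10 to 0.018 with the median ratio, which moved the median of all loci by 0.12. Between the lines the higher count went from 2 to 1 with 1 added or a minimum of 10 under both treatments and with 0.1 added under PMA. With the same sum it went to 19 with DMSO and 22 with PMA, and the median to 1.16 and 1.28. With EICD the higher count went from 2 (3.93%) to 4 with a minimum of 0.1 (10.1%) and 1 with a minimum of 10 (1.72%). The lower count went from 1 (0.836%) to 0 with 1 added (0.345%), a minimum of 10 (0.325%) or the same sum (0.667%). The median went from 0.05 to -0.14 with the same sum, and that of all loci from 0.07 to -0.15. In the GFP library against the unsorted one, the higher count went from 0 (4.01%) to 1 (4.68%) with the median ratio.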
